A study of Mus musculus with 12 samples.

Results

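The Ikaros zinc finger family was described here in follicular B cells, mature recirculating cells of the splenic follicles, through its 5 genes Ikzf1 to Ikzf5. The members were taken by symbol, 5 of 18193 measured genes, with all 13 of their probe sets that carry a single gene symbol, and each gene was read mainly from its probe set with the highest mean signal over the 12 arrays. The cells came from spleens of C57Bl/6 mice aged 6 weeks and were of 2 genotypes, IkL/L and wild type (WT). IkL is an altered allele of Ikzf1 itself, a germline insertion of a lacZ reporter that lowers Ikaros protein in all cells that use the gene, and IkL/L mice carry it on both chromosomes. Cells of each genotype were cultured 3 h without stimulus, 3 h with 10 μg/ml anti-IgM F(ab')2, which crosslinks the B cell receptor, or 12 h with the same agent. This gives 6 groups of 2 arrays, IkL/L and WT in each of 3 conditions, and the labels state 2 experiments without saying which mice entered each. The unstimulated cells were cultured 3 h, so a 12 h difference combines the stimulus with longer culture, and these cannot be told apart.

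The proteins of this family bind DNA through zinc fingers near the N-terminus and pair with themselves and each other through zinc fingers near the C-terminus. Ikaros (Ikzf1) and Aiolos (Ikzf3) are the members known for their roles in B cells, where they recruit repressor complexes such as NuRD and restrain pre-B cell genes and the cell cycle. Helios (Ikzf2) and Eos (Ikzf4) are best known from T cells, and Pegasus (Ikzf5) is the most divergent member, with a different DNA recognition sequence. The short core GGGAA is the usual recognition motif of Ikaros, Aiolos and Helios.

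Of the 5 genes, Ikzf1 and Ikzf5 have upstream windows in the RefSeq promoter table (build GRCm38.p6). These are shown because the family's products are known to bind the GGGAA core and the main probe sets of these 2 members moved. The second Ikzf5 probe set did not show the fall at 12 h of the main one. Each window is the 250 bases before an annotated start, written 5′ to 3′ on the gene's strand in lower case, with each GGGAA match on either strand in capitals (TTCCC is the reverse strand). The windows are chr11:11685675-11685924 (plus strand) and chr11:11689927-11690176 (plus strand) for Ikzf1, and chr7:131410479-131410728 (minus strand) for Ikzf5.
Ikzf1, upstream start: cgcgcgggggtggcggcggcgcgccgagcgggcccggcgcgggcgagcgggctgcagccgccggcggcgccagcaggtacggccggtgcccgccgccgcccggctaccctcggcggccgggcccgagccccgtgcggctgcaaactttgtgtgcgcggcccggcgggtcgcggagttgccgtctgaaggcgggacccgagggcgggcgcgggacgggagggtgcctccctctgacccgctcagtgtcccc
Ikzf1, downstream start: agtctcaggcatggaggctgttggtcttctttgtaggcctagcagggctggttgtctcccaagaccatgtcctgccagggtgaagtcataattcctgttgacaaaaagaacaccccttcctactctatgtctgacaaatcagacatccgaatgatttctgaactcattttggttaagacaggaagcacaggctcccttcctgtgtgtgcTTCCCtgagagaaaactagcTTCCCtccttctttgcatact
Ikzf5: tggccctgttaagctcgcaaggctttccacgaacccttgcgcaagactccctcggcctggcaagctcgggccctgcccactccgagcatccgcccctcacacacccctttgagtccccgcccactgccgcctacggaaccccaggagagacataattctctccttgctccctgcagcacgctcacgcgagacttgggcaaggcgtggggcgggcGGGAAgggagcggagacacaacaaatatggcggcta
The upstream Ikzf1 window held 0 matches at a GC content of 82.0%, the downstream Ikzf1 window 2 matches at 47.6% and the Ikzf5 window 1 match at 64.0%. GGGAA on either strand occurs in 56.2% of the 32851 windows of this table, and the median GC content of all windows is 52.4%. A match is a description of these letters and no measure of binding.

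The deposited values are log2 signals. The medians of the 12 arrays lay between 3.12 and 3.21, and a signal floor was set 1 log2 unit above the highest of them, at 4.21. With 2 arrays a group, precision is limited. All 7 measured B cell markers were above the floor on all 12 arrays, as were the follicular markers Fcer2a and Cr2, whose summed log2 signal was 6.96 to 7.55 in IkL/L and 8.12 to 8.37 in WT cells at 12 h, against 9.61 to 9.98 in IkL/L and 9.73 to 10.0 in WT unstimulated cells. All 9 measured T cell markers were under the floor on all 12 arrays, with a summed log2 signal of 6.20 to 6.34 in IkL/L and 6.20 to 6.35 in WT cells. Of 8 myeloid markers 4 were under the floor on all arrays, and their summed log2 signal was 6.76 to 8.04 in IkL/L and 6.23 to 8.30 in WT cells, higher in replicate 2 than in replicate 1 in all 6 groups. Of the 4 plasma cell markers, Xbp1 alone was above the floor on all 12 arrays. Their summed log2 signal was 9.04 to 10.1 in IkL/L and 8.57 to 9.52 in WT cells. Of the 5 marginal zone or B1 markers, Cd9 and Dtx1 alone were above the floor on all 12 arrays. Their summed log2 signal was 9.39 and 10.1 in IkL/L cells at 12 h, against 8.70 and 9.0 in WT cells. That of the 7 B cell markers was 13.4 and 13.5 in IkL/L and 13.8 and 13.9 in WT cells at 3 h, against 14.4 on both IkL/L and 14.7 and 14.8 on the WT arrays of unstimulated cells. The part of these markers in the results was not tested. The 3 arrays of WT replicate 1 stood apart in the X-inactivation transcript Xist, at 10.0 to 10.7 against 3.19 to 3.48 on the other 9 arrays. The Y chromosome gene Eif2s3y read 2.41 to 2.83 on those 3 arrays and 8.30 to 9.24 on the other 9. For Kdm5d, also on the Y chromosome, the values were 1.97 to 2.74 and 4.99 to 5.59. This is a female pattern in WT replicate 1 and a male pattern on all other arrays, IkL/L included. The part of sex in the differences between the genotypes was not tested. The main WT values are also given without that replicate. In bulk RNA, fewer cells of a type and less RNA per cell cannot be told apart.

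Ikzf1, which encodes Ikaros, fell 3 h after anti-IgM in both genotypes and rose again between 3 and 12 h in both. The fall at 3 h was 3.12-fold in IkL/L cells and 1.77-fold in WT cells. In log2 signal, the IkL/L arrays read 10.00 and 9.94 unstimulated, 8.58 and 8.08 at 3 h, and 9.59 and 8.98 at 12 h. The WT arrays read 9.85 and 9.83 unstimulated, 8.93 and 9.10 at 3 h, and 10.33 and 10.00 at 12 h. In each genotype both 3 h arrays lay below both unstimulated arrays and both 12 h arrays. The summed B cell markers were also lower at 3 h than in unstimulated cells and lower in IkL/L than in WT cells at both. At 12 h, when Ikzf1 had risen again, these sums were still below those of unstimulated cells. They were then 13.8 and 13.5 in IkL/L and 13.7 and 13.6 in WT cells, overlapping between the genotypes. The part of these markers in the Ikzf1 differences was not tested. At 12 h both IkL/L arrays were still below both unstimulated IkL/L arrays for Ikzf1, while both WT arrays were above both unstimulated WT arrays.

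**Figure D1:**
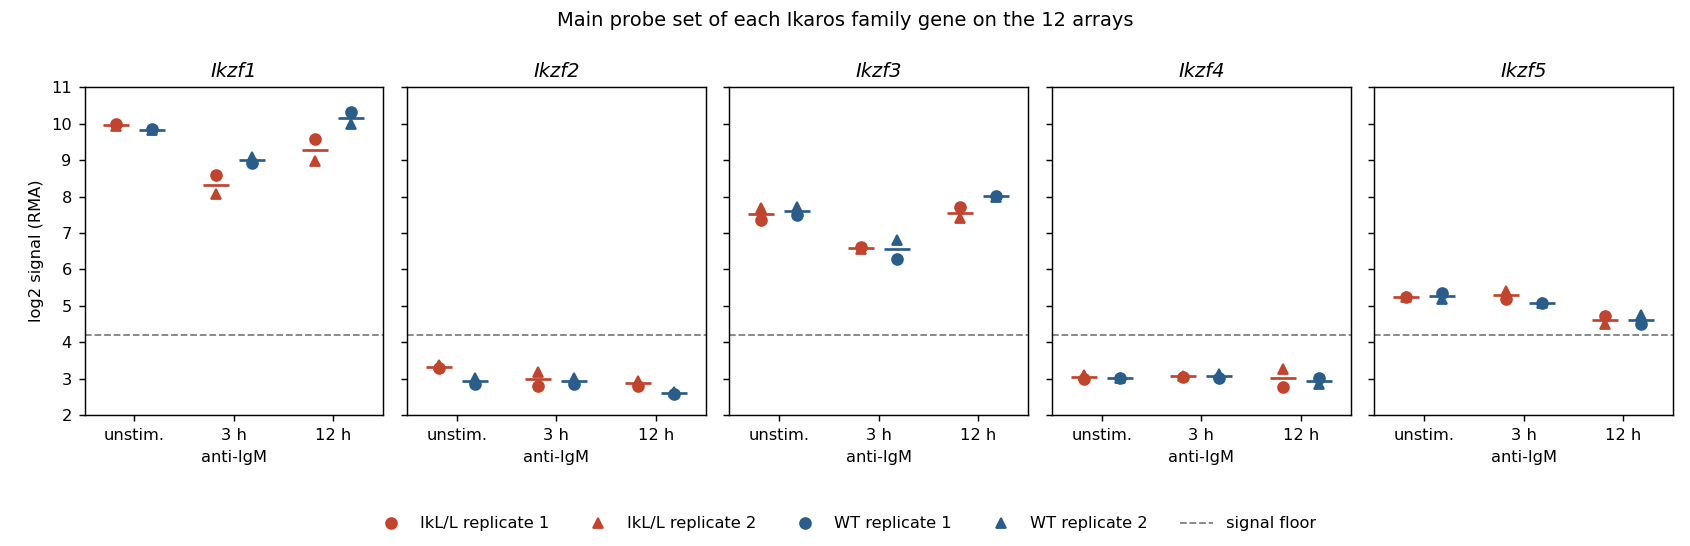
The log2 signal of the main probe set of each family gene is plotted on every array, IkL/L (red) left of WT (blue) in each condition, with circles for replicate 1, triangles for replicate 2, a bar for the mean of 2 arrays and a dashed line for the signal floor at 4.21. Ikzf1 and Ikzf3 dip at 3 h, Ikzf5 is lower at 12 h, and Ikzf2 and Ikzf4 stay under the floor on all 12 arrays.

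The log2 difference at 3 h from unstimulated cells was −1.64 for Ikzf1 in IkL/L cells (SE 0.22, 95% interval −2.12 to −1.16, adjusted p = 0.000413). It was −0.83 in WT cells (SE 0.22, −1.31 to −0.34, adjusted p = 0.0218). Ikzf1 and Ikzf3 were the 2 of 5 members that fell at 3 h, in IkL/L as in WT cells, where 10.6% of all genes fell in IkL/L and 10.2% in WT cells. Of the 5 members 0 rose in limma's test, also at an unadjusted p under 0.05, against 9.82% of all genes in IkL/L and 9.15% in WT cells. The IkL/L call for Ikzf1 held under all alternatives run for it, with adjusted p between 3.41e-05 and 0.00748. The WT call rested on each of its 4 arrays, and leaving out unstimulated replicate 1 gave an adjusted p of 0.0990, unstimulated replicate 2 one of 0.0964, replicate 1 at 3 h one of 0.128 and replicate 2 at 3 h one of 0.0594. Without WT replicate 1 in all conditions, the WT log2 difference was −0.74 (adjusted p = 0.294).

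Between 3 and 12 h Ikzf1 rose by a log2 difference of 0.95 in IkL/L cells (SE 0.22, adjusted p = 0.0138) and of 1.15 in WT cells (SE 0.22, adjusted p = 0.00782). Ikzf1 and Ikzf3 were the 2 members that rose in this interval in each genotype, where 9.12% of all genes rose in IkL/L and 6.5% in WT cells. The IkL/L rise of Ikzf1 was not called without IkL/L 3 h replicate 2 (adjusted p = 0.119), without IkL/L 12 h replicate 1 (0.105) or with the IkL/L source 1 left out throughout (0.0538). The WT rise was not called without WT 3 h replicate 1 (0.0596), WT 12 h replicate 1 (0.0506), WT replicate 1 in all conditions (log2 difference 0.90, 0.245) or WT replicate 2 in all conditions (0.0968).

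Set against unstimulated cells, Ikzf1 at 12 h differed by −0.69 in IkL/L cells (95% interval −1.17 to −0.20, adjusted p = 0.0559) and by 0.32 in WT cells (−0.16 to 0.81, adjusted p = 0.413), and neither passed the test. The IkL/L value passed in 4 of 16 omissions, without either IkL/L array at 3 h (adjusted p = 0.0443 each), without IkL/L 12 h replicate 1 (−0.99, 0.0165) and with IkL/L source 1 left out throughout (−0.96, 0.0371). It was −0.38 without IkL/L 12 h replicate 2 (0.395) and −0.41 with IkL/L source 2 left out throughout (0.369). The WT value was 0.16 without WT replicate 1 (0.890). The replicate number was also fitted as a block within genotype, a pairing inferred from the arrays. The IkL/L value then had an adjusted p of 0.0110. In that fit 3 of 5 members were called lower in place of 1, where 10.5% of all genes were called lower. The 3 were Ikzf1, Ikzf5 and Ikzf2, which is under the floor and so not measurable. In the fit without the block the 1 member that fell at 12 h was Ikzf5, in each genotype, where 7.87% of all genes fell in IkL/L and 8.66% in WT cells.

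Between the genotypes, the Ikzf1 signal of IkL/L arrays was slightly above that of WT arrays before stimulation and below it in both stimulated conditions, and no comparison passed the test. The log2 difference, IkL/L minus WT, was 0.13 in unstimulated cells (95% interval −0.35 to 0.61, adjusted p = 0.937). It was −0.68 at 3 h (−1.17 to −0.20, adjusted p = 0.193) and −0.88 at 12 h (−1.36 to −0.40, adjusted p = 0.148). At both times both IkL/L arrays lay below both WT arrays. Averaged over the 3 conditions it was −0.48 (−0.76 to −0.20, adjusted p = 0.0533). The average compares 2 sources per genotype used 3 times each, and with source as a random block its adjusted p was 0.0996. The sources used here do not say which part of the Ikzf1 transcript the probe set reads relative to the IkL insertion, so the signal is no check of the genotype.

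Of the 5 members 0 differed between the genotypes in limma's test, where 1.13% of all genes were called in unstimulated cells, 1.7% at 3 h, 0.616% at 12 h and 6.08% in the average. These shares depended on single arrays and sources: 16 to 204 genes were called with 1 left out in place of 205 unstimulated, 17 to 327 in place of 310 at 3 h, 4 to 162 in place of 112 at 12 h, and 227 to 1305 in place of 1107 in the average. At an unadjusted p under 0.05 the counts were 1 unstimulated (Ikzf2, under the floor), 1 at 3 h (Ikzf1), 2 at 12 h (Ikzf1 and Ikzf3) and 2 in the average (Ikzf1 and Ikzf2). The Ikzf1 differences depended on single IkL/L arrays. At 3 h the difference was −0.93 without IkL/L 3 h replicate 1 (adjusted p = 0.134) and −0.44 without IkL/L 3 h replicate 2 (0.757). At 12 h it was −1.18 without IkL/L 12 h replicate 1 (0.0494) and −0.58 without IkL/L 12 h replicate 2 (0.789). The average passed in 3 of 16 omissions, those of IkL/L 3 h replicate 1 (−0.56, 0.0342), of IkL/L 12 h replicate 1 (−0.58, 0.0174) and of IkL/L source 1 throughout (−0.67, 0.0156), and was −0.28 with IkL/L source 2 left out throughout (0.326). Leaving out WT replicate 1 throughout gave −0.77 at 3 h (0.358), −0.71 at 12 h (0.390) and −0.45 in the average (0.216).

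The question whether the 2 genotypes responded unequally was put to the difference of the responses. For Ikzf1 the IkL/L response minus the WT response was −0.81 at 3 h (95% interval −1.50 to −0.13, adjusted p = 0.785) and −1.01 at 12 h (−1.69 to −0.33, adjusted p = 0.637). Over all genes 0.0385% were called in this comparison at 3 h and 0.022% at 12 h, and 0 of 5 members were called by limma. At an unadjusted p under 0.05, Ikzf1 was the 1 member at each time. The deeper dip of Ikzf1 in IkL/L cells is therefore a difference of these arrays that did not pass the correction over all genes.

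**Figure D2:**
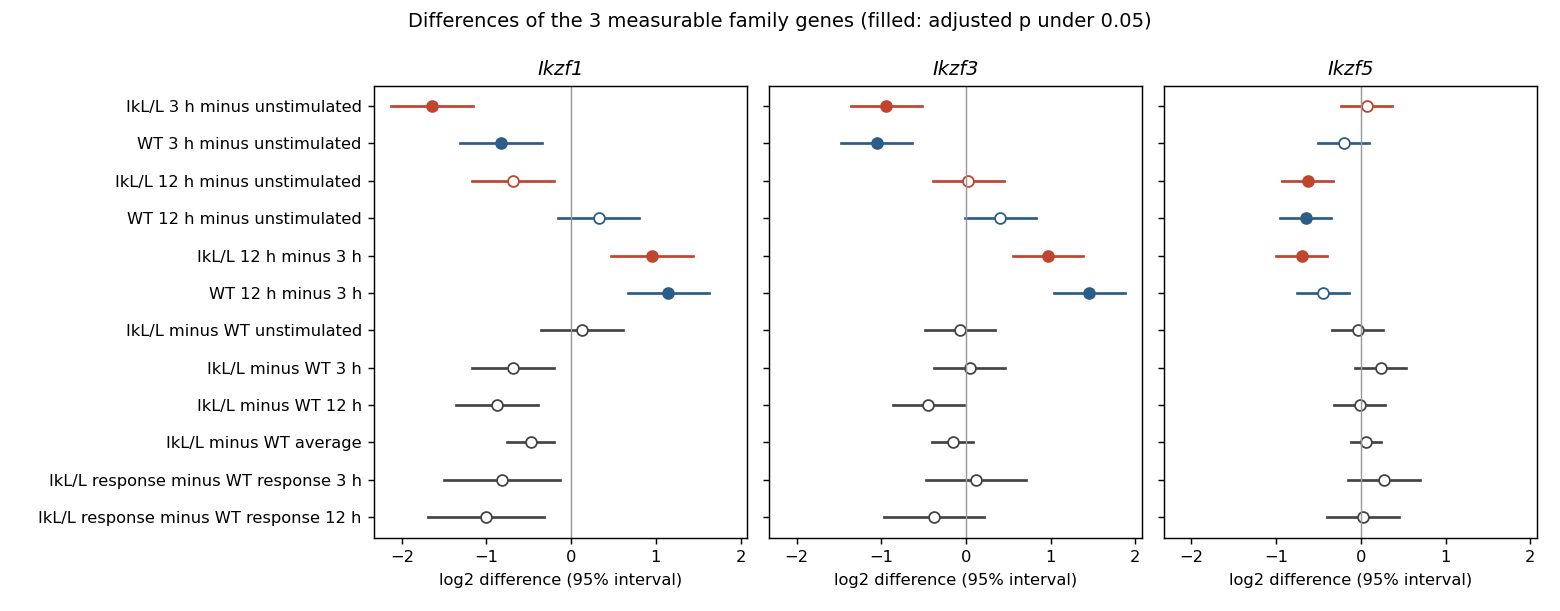
The log2 difference (horizontal axis, with its 95% interval) is plotted for Ikzf1, Ikzf3 and Ikzf5 in 12 comparisons, with IkL/L responses in red, WT responses in blue and comparisons between the genotypes in grey, and filled points where the adjusted p was under 0.05. The filled points lie among the responses, and the 6 comparisons between the genotypes are open for all 3 genes.

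Ikzf3 encodes Aiolos, the partner of Ikaros in mature B cells. Like Ikzf1 it fell at 3 h and rose from 3 to 12 h in both genotypes. Its fold changes at 3 h were close in the 2 genotypes. The fall at 3 h was 1.92-fold in IkL/L cells and 2.08-fold in WT cells. In log2 signal, the IkL/L arrays read 7.36 and 7.70 unstimulated, 6.62 and 6.56 at 3 h, and 7.70 and 7.41 at 12 h. The WT arrays read 7.48 and 7.72 unstimulated, 6.29 and 6.80 at 3 h, and 8.01 and 8.0 at 12 h. All 4 stimulated arrays at 3 h lay below the other 8 arrays. At 12 h the IkL/L arrays overlapped the unstimulated ones, and the WT arrays lay above them.

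The log2 difference of Ikzf3 at 3 h was −0.94 in IkL/L cells (SE 0.19, adjusted p = 0.00488) and −1.05 in WT cells (SE 0.19, adjusted p = 0.00259). From 3 to 12 h it was 0.97 in IkL/L cells (adjusted p = 0.00632) and 1.46 in WT cells (adjusted p = 0.00105). At 12 h the difference from unstimulated cells was 0.03 in IkL/L cells (95% interval −0.39 to 0.45) and 0.40 in WT cells (−0.01 to 0.82, adjusted p = 0.196), or 0.28 without WT replicate 1. Between the genotypes Ikzf3 differed by −0.07 in unstimulated cells, 0.04 at 3 h and −0.45 at 12 h (−0.87 to −0.03, adjusted p = 0.465), and the responses differed by 0.11 at 3 h (−0.48 to 0.71) and −0.38 at 12 h (−0.97 to 0.21).

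Calls for Ikzf3 depended on single sources. The IkL/L fall at 3 h was not called when IkL/L source 2 was left out throughout (adjusted p = 0.144). The IkL/L rise from 3 to 12 h was not called without IkL/L 12 h replicate 1 (0.0518), IkL/L replicate 1 (0.125) or IkL/L replicate 2 (0.0710) in all conditions. Without WT replicate 1, the WT fall had a log2 difference of −0.92 (adjusted p = 0.0590) and the WT rise one of 1.20 (adjusted p = 0.0512).

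Of the other probe sets of Ikzf3, the second, 1441088_at, read 4.12 to 5.05 and was at or above the floor on 9 of 12 arrays. It rose between 3 and 12 h in IkL/L cells (at least 1.44-fold, adjusted p = 0.0271) and in WT cells (at least 1.62-fold, adjusted p = 0.00984), where 13.2% of all probe sets were called in IkL/L and 7.96% in WT cells. It also rose at 12 h against unstimulated WT cells (0.51, adjusted p = 0.0369), where 15.5% of probe sets were called, and differed by 0.27 in IkL/L cells (adjusted p = 0.30, against 14.5% called). Its 3 h differences did not pass the test in either genotype, where 17.6% of probe sets were called in IkL/L and 16.2% in WT cells. The third probe set, 1453378_at, read 2.48 to 3.92, under the floor on all 12 arrays. By limma it was called lower than in unstimulated cells at 3 h (adjusted p = 0.0154 in IkL/L, 0.00429 in WT). It was also called lower at 12 h (0.00586 in IkL/L, 0.00262 in WT), and it passed no test from 3 to 12 h. At these signals the size of such differences was not measurable.

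**Figure D3:**
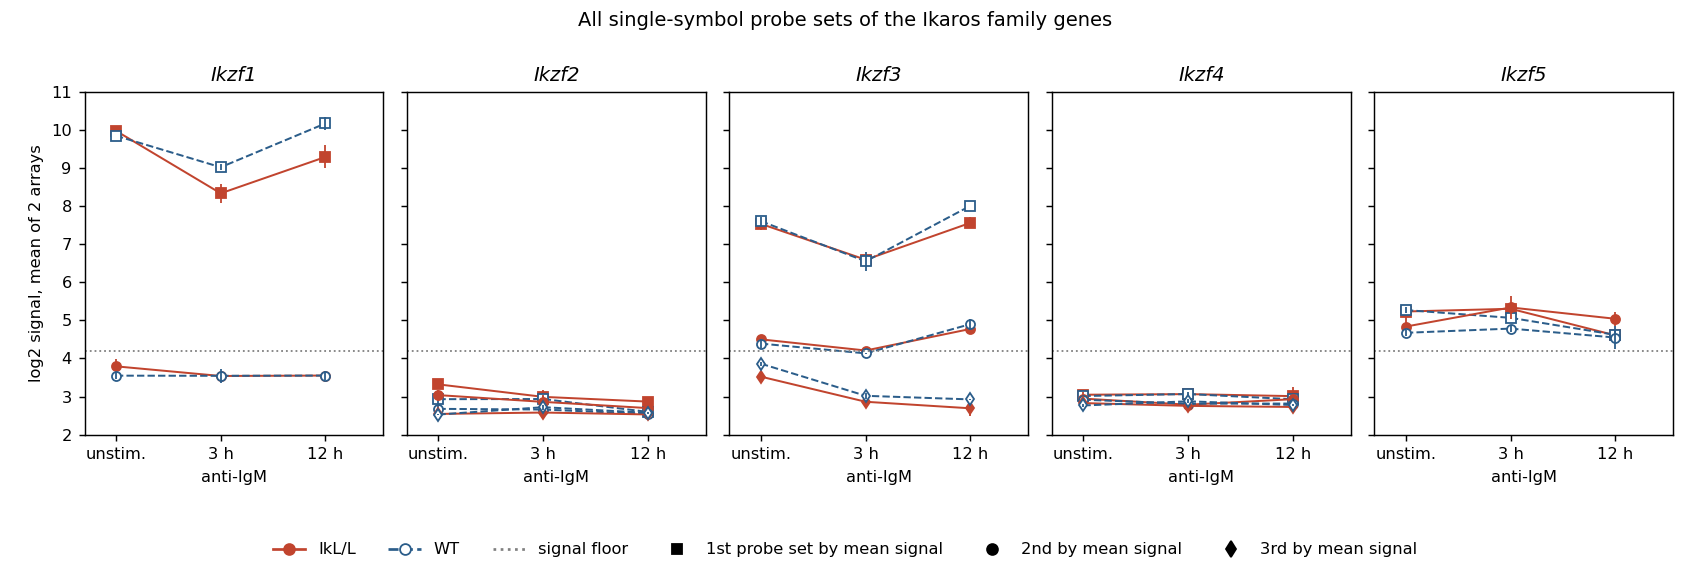
Mean log2 signal of 2 arrays is plotted for all 13 probe sets by condition, with squares, circles and diamonds for a gene's probe sets from the highest mean signal down, red filled symbols for IkL/L, blue open symbols for WT, vertical lines for the range of the 2 arrays and a dotted line for the signal floor at 4.21. For Ikzf3 the first and second probe sets turn up between 3 and 12 h, and the third lies under the floor throughout. For Ikzf5 the first probe set is lower at 12 h than in unstimulated cells, and the second does not show this fall.

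Ikzf5, which encodes Pegasus, passed no test at 3 h and fell at 12 h in both genotypes, 1.54-fold in IkL/L cells and 1.57-fold in WT cells. In log2 signal, the IkL/L arrays read 5.23 and 5.23 unstimulated, 5.19 and 5.41 at 3 h, and 4.71 and 4.50 at 12 h. The WT arrays read 5.35 and 5.18 unstimulated, 5.07 and 5.06 at 3 h, and 4.50 and 4.74 at 12 h. All 4 arrays at 12 h were below the other 8 and above the floor. The summed follicular markers were also lowest at 12 h in both genotypes, and their part in this fall was not tested.

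The log2 difference of Ikzf5 at 12 h from unstimulated cells was −0.63 in IkL/L cells (SE 0.14, adjusted p = 0.00922) and −0.65 in WT cells (SE 0.14, adjusted p = 0.00680), and 0 of 5 members rose in either genotype by limma, or at an unadjusted p under 0.05, where 9.72% of all genes rose in IkL/L and 10.1% in WT cells. At 3 h it was 0.07 in IkL/L cells (95% interval −0.23 to 0.37) and −0.20 in WT cells (−0.50 to 0.10, adjusted p = 0.422), or −0.12 without WT replicate 1. Between 3 and 12 h Ikzf5 fell in IkL/L cells (−0.70, adjusted p = 0.00632), the 1 member to do so against 6.42% of all genes, and differed by −0.45 in WT cells (adjusted p = 0.0659), where 4.33% of all genes fell. IkL/L and WT cells differed by −0.04 unstimulated, 0.24 at 3 h (−0.06 to 0.54, adjusted p = 0.526) and −0.01 at 12 h. The responses differed by 0.27 at 3 h (−0.15 to 0.70) and by 0.02 at 12 h (−0.40 to 0.45).

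The second Ikzf5 probe set, 1436554_at, did not show the fall at 12 h. It read 4.58 and 5.10 in unstimulated, 5.04 and 5.64 in 3 h and 5.22 and 4.86 in 12 h IkL/L cells. Its 12 h log2 difference was 0.20 in IkL/L cells (95% interval −0.38 to 0.79) and −0.12 in WT cells (−0.71 to 0.46). IkL/L minus WT was 0.16 unstimulated, 0.55 at 3 h (−0.03 to 1.14) and 0.49 at 12 h (−0.10 to 1.08). At 3 h and 12 h both IkL/L arrays lay above both WT arrays. The average was 0.40 (0.06 to 0.74), and none of these differences passed limma's test (adjusted p = 0.203 in the average). The 12 h IkL/L call of the main probe set was not made without IkL/L 12 h replicate 2 (adjusted p = 0.0861), IkL/L replicate 1 (0.0653) or IkL/L replicate 2 (0.184) in all conditions. The fall from 3 to 12 h was not called without IkL/L 3 h replicate 2 (0.0590), IkL/L 12 h replicate 2 (0.0555) or IkL/L replicate 2 in all conditions (0.243). The WT call was not made without WT unstimulated replicate 1 (0.0623), WT 12 h replicate 1 (0.0544) or WT replicate 1 in all conditions (log2 difference −0.44, 0.264).

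Ikzf2 and Ikzf4, the members best known from T cells, were under the floor with each of their 3 probe sets on all 12 arrays, as were the 9 T cell markers. The main probe set of Ikzf2 (1437542_at) read 2.56 to 3.36 and that of Ikzf4 (1438274_at) 2.77 to 3.25, so no fold is given for either. The second probe set of Ikzf1 (1421303_at) was under the floor too, at 3.36 to 4.0, and its differences in the 12 comparisons did not pass the test. At these signals a difference between groups was not measurable.

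Ordered by mean log2 signal, the Ikzf1 groups ran WT 12 h (10.16), IkL/L unstimulated (9.97), WT unstimulated (9.84), IkL/L 12 h (9.28), WT 3 h (9.01) and IkL/L 3 h (8.33). Neighbours here were picked by ordering the same values and the intervals are unadjusted, so for all 3 genes they are a description and no test. Of the 5 steps between neighbours, the 95% interval excluded 0 for WT unstimulated over IkL/L 12 h. It also did so for WT 3 h over IkL/L 3 h, a difference that did not pass limma's test (adjusted p = 0.193). For Ikzf3 the order was WT 12 h, WT unstimulated, IkL/L 12 h, IkL/L unstimulated, IkL/L 3 h and WT 3 h, and 1 step, IkL/L unstimulated over IkL/L 3 h, had an interval that excluded 0. For Ikzf5 it was IkL/L 3 h, WT unstimulated, IkL/L unstimulated, WT 3 h, WT 12 h and IkL/L 12 h, and 1 step, WT 3 h over WT 12 h, had such an interval.

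The genes most like each member were ranked by Pearson's r over the 12 arrays among those with a mean log2 signal of at least 6. The arrays share conditions and sources, so these values are descriptions. For Ikzf1 they were Ago1, an Argonaute of small-RNA silencing (0.932), Pkig, an inhibitor of protein kinase A (0.927), Tram1 of the endoplasmic reticulum translocon (0.920) and the surface glycoprotein gene Cd52 (0.919). For Ikzf3 they were Gltp, a glycolipid transfer protein (0.968), Ube4b, a ubiquitin ligase (0.959), the glutaminyl-tRNA synthetase Qars (0.951) and Rfwd3, a ubiquitin ligase of DNA repair (0.949). For Ikzf5 they were Epb41l2, a membrane skeleton protein (0.962), Vps36 of endosomal sorting (0.954), the RNA-binding protein Nufip2 (0.953) and the kinase Sik2 (0.951). The choice of measure moved these names. By Spearman's rho, Pkig ranked 5.5, Ago1 52, Cd52 178 and Tram1 240.5 for Ikzf1, Qars ranked 93 for Ikzf3, and the 4 genes of Ikzf5 ranked 1 to 30. The gene most like Ikzf1 was then Ube4b.

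Genes that work with Ikaros showed both directions. Their counts stand against 9.82% of all genes that rose and 10.6% that fell in IkL/L cells at 3 h, 9.15% and 10.2% in WT cells at 3 h, 9.72% and 7.87% in IkL/L cells at 12 h, and 10.1% and 8.66% in WT cells at 12 h. Leaving out WT replicate 1, an omission chosen after seeing the data, leaves 1 WT array a group. Fewer of all genes were then called higher and called lower in WT cells, at 3 h and at 12 h. Of 15 measured genes for Ikaros cofactors and turnover, 3 rose and 2 fell in IkL/L cells at 3 h, and 1 rose and 2 fell in WT cells. The list's median log2 difference at 3 h was 0.07 in IkL/L and −0.08 in WT cells, against −0.03 in IkL/L and 0.02 in WT cells over all genes. Ppp1ca, a catalytic subunit of the phosphatase that opposes Ikaros phosphorylation, read 9.05 and 8.85 at 3 h against 10.81 and 10.40 unstimulated in IkL/L cells. In WT cells Ppp1ca read 9.40 and 9.43 at 3 h against 10.70 and 10.82 unstimulated. Its log2 differences were −1.66 in IkL/L and −1.34 in WT cells, and it rose again by 12 h. Crbn, the cereblon receptor through which lenalidomide-type drugs mark human Ikaros and Aiolos for destruction, fell by 1.01 in IkL/L cells and fell by 1.09 in WT cells at 3 h. Csnk2a1, a catalytic subunit of casein kinase 2, which phosphorylates Ikaros, rose at 3 h (0.75 in IkL/L, 0.68 in WT) and was higher at 12 h (0.96 in IkL/L, 0.92 in WT).

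At 12 h 2 cofactor genes rose and 1 fell in IkL/L cells and 1 rose and 0 fell in WT cells. Without WT replicate 1, fewer cofactor genes were called in WT cells at 3 h and at 12 h, as were fewer of all genes. Ppp1ca was then at −1.39, Crbn at −0.99 and Csnk2a1 at 0.46 in WT cells at 3 h. Between the genotypes Ctbp2, a corepressor of the CtBP family, was the 1 gene of this list called. It was higher in IkL/L cells at 3 h (4.68 and 4.32, against 3.58 and 3.65 in WT cells, at least 1.22-fold, adjusted p = 0.0273, or 0.200 without WT replicate 1), where 0.835% of all genes were higher. All 6 WT arrays and the 4 IkL/L arrays of the other conditions were under the floor for Ctbp2, so its call in the average over conditions is given no size.

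Among 13 NuRD genes, all measured, 5 rose and 2 fell at 3 h in IkL/L cells and 4 rose and 4 fell in WT cells. The list's median was 0.49 in IkL/L and 0.47 in WT cells at 3 h, and 0.09 in IkL/L and 0.0049 in WT cells at 12 h, where the median of all genes was 0.02 in IkL/L and 0.05 in WT cells. Mta3, a scaffold subunit, fell by 1.72 in IkL/L cells and by 1.55 in WT cells at 3 h on the log2 scale. Mbd3, a methyl-CpG-binding-domain subunit, rose by 1.14 in IkL/L and 1.18 in WT cells at 3 h and was 1.37 higher in IkL/L and 1.39 higher in WT cells at 12 h. At 12 h 4 genes rose and 0 fell in IkL/L cells, and 4 rose and 2 fell in WT cells. Hdac2, a histone deacetylase of the complex, was the 1 gene called between the genotypes, 0.38 higher in IkL/L cells in the average over conditions (adjusted p = 0.0242), where 3.41% of all genes were higher. With WT replicate 1 left out, fewer NuRD genes were called in WT cells at 3 h, as were fewer of all genes. Mta3 was then at −1.80 and Mbd3 at 1.18 in WT cells at 3 h. Hdac2 was 0.48 higher in IkL/L cells in the average over conditions. In that fit the NuRD calls in the average went in both directions.

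**Figure D4:**
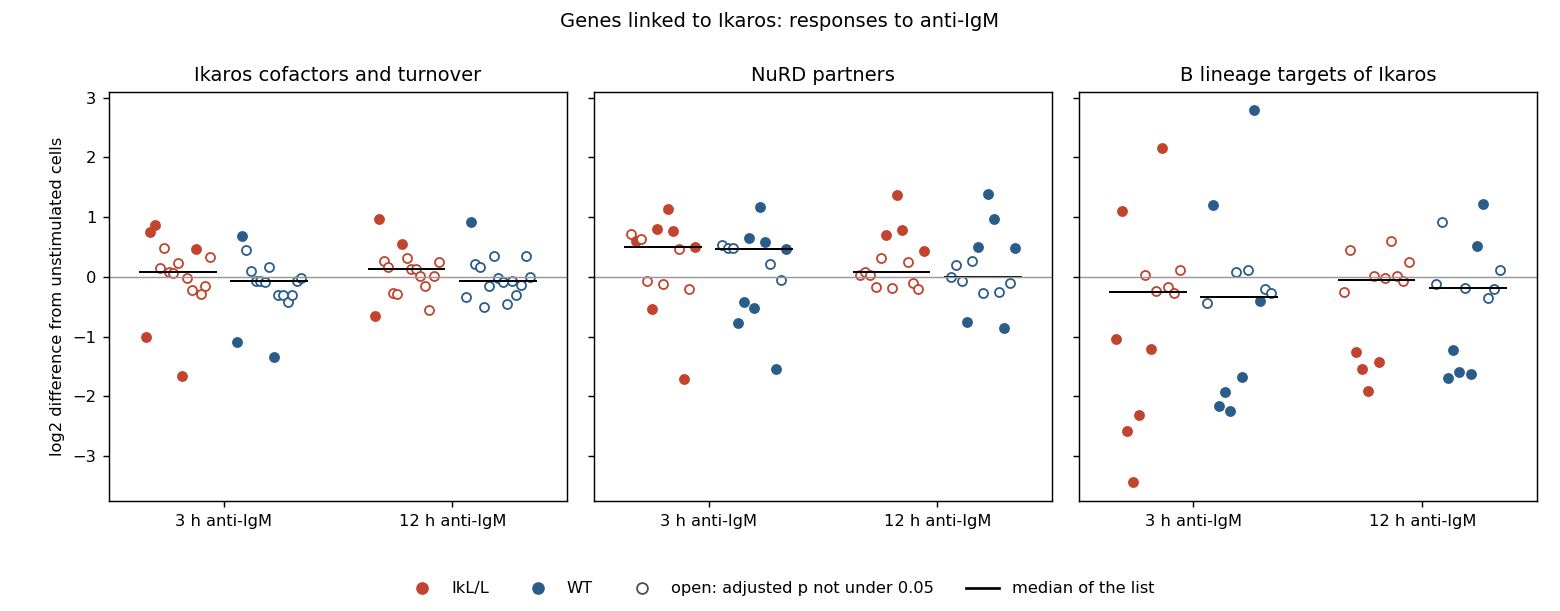
The log2 difference from unstimulated cells is plotted for each measured gene of 3 lists, 15 for Ikaros cofactors and turnover, 13 for NuRD and 12 for B lineage targets of Ikaros, at 3 h and 12 h, with IkL/L (red) left of WT (blue), filled points where the adjusted p was under 0.05 and a black line at the list's median. Each list holds genes that rose and genes that fell at 3 h, and the NuRD medians at 3 h are 0.49 in IkL/L and 0.47 in WT cells.

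Of 12 B lineage genes known as targets of Ikaros, 2 rose and 5 fell at 3 h in each genotype, with a median of −0.25 in IkL/L and −0.34 in WT cells. At 12 h 0 rose and 4 fell in IkL/L cells, and 2 rose and 4 fell in WT cells. Myc, the growth regulator, rose at 3 h by 2.15 in IkL/L and 2.79 in WT cells. The cell cycle genes Cdkn1b (p27) and Ccnd3 (cyclin D3) fell at 3 h in each genotype. Cdkn1b had a log2 difference of −2.32 in IkL/L cells (at least 4.80-fold, with 1 array under the floor) and of −2.24 in WT cells at 3 h. Igll1, Vpreb1, Dntt, Rag1 and Rag2, pre-B cell and recombination genes, were under the floor on all 12 arrays. They include 1 of the 5 called lower at 3 h in WT cells (Rag1) and 1 of the 2 called higher at 12 h in WT cells (Igll1), differences that were not measurable at these signals. Without WT replicate 1, fewer target genes were called in WT cells at 3 h and at 12 h, as were fewer of all genes. Myc was then at 2.66 in WT cells at 3 h.

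Between the genotypes, 2 of the 12 target genes were lower in IkL/L cells at 3 h and in the average, where 0.868% and 2.67% of all genes were lower. Cd79b, a signalling chain of the B cell receptor and also one of the B cell markers, read 9.21 and 8.54 in IkL/L cells at 3 h, against 10.43 and 10.91 in WT cells (log2 difference −1.80, adjusted p = 0.00973). Ccnd3 read 4.55 and 4.63 in IkL/L cells at 3 h, against 5.45 and 5.48 in WT cells (−0.88, adjusted p = 0.0240). With WT replicate 1 left out, neither was called at 3 h (Cd79b −2.04, adjusted p = 0.0655, and Ccnd3 −0.90, 0.105), and in the average Cd79b was at −0.99 (0.0373) and Ccnd3 at −0.56 (0.0344). Both had their lowest signals at 3 h in each genotype, as Ikzf1 and Ikzf3 did, and all 3 groups of the average share the 2 sources per genotype.

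Scaling moved the balance of rising and falling genes. With each array scaled to 8 housekeeping genes, the median log2 difference of all genes at 12 h shifted by −0.25 in IkL/L and −0.17 in WT cells, and from 3 to 12 h by −0.29 in IkL/L and −0.16 in WT cells. The share of called genes that rose at 12 h was then 28.7% in IkL/L and 34.9% in WT cells, against 55.3% in IkL/L and 53.9% in WT cells as deposited. From 3 to 12 h that share was 27.0% in IkL/L and 38.8% in WT cells, against 58.7% in IkL/L and 60.0% in WT cells as deposited. With median centring it was 45.3% in IkL/L cells, with a shift of −0.12, and the share that rose was 57.4% at 3 h in IkL/L cells (48.1% as deposited) and 49.1% at 12 h in WT cells (53.9% as deposited). Between the genotypes, the share of called genes that were higher in IkL/L cells was 37.5% unstimulated and 29.8% in the average with housekeeping scaling, where 52.7% and 56.1% were higher as deposited, and 42.3% unstimulated with median centring. At 3 h median centring gave 56.0%, and 49.0% were higher as deposited. Housekeeping scaling shifted the median of IkL/L minus WT by −0.18 at 12 h and −0.11 in the average. The rises of Ikzf1 and Ikzf3 from 3 to 12 h in IkL/L cells stayed positive under housekeeping scaling and lost their calls (Ikzf1 0.66, adjusted p = 0.0611, and Ikzf3 0.67, adjusted p = 0.0996).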

How the data were processed

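RNA of 12 cultures was measured, 2 per group, on an Affymetrix mouse 3′ expression array from 100 ng of total RNA labelled in a 2-cycle assay, per the labels' protocols. The authors deposited log2 signals that were summarized with RMA (version not given), per the submitters' processing notes. Sample titles gave the group and replicate number, and the labels do not tie cultures to animals, so p-values cover the spread between arrays and no more.

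Of 45037 probe sets, 34945 carry 1 gene symbol, 932 several and 9160 are not listed in the platform annotation used. Each of 18193 genes was read from its single-symbol probe set with the highest mean. A limma 3.58.1 model (R 4.3.3) over the 12 arrays held a mean for each of the 6 groups, with Benjamini-Hochberg adjustment over all genes of a comparison and calls at an adjusted p under 0.05, and the same fit was run on all 34945 probe sets. Residual degrees of freedom were 6. Scripts were tested on simulated data. A group with an array under the floor of 4.21 has its fold given as "at least", against the floor where an array is under it.

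Replicate numbers were checked by correlating deviations from group means over 6065 genes. Within a genotype r was 0.354 to 0.619, and 0.354 to 0.490 in IkL/L cells. The numbers were therefore taken to pair cultures there, which the labels do not state. That pairing entered the fits with a block as alternatives, and the main calls do not use it. Xist in WT replicate 1 was a further sign of pairing in WT cells. Across genotypes r was 0.0263 to 0.310, which does not settle a pairing. Alternatives changed the block, probe sets, filter, moderation, weights, scaling and replicates. Members, lists (17 cofactor, 13 NuRD and 12 target genes) and tests were chosen with earlier results of these data known. Named genes are the members, the 4 genes most like each and up to 3 list genes with the largest called differences, with the pre-B cell and recombination genes of the target list named after their values were seen. Ikzf2 and Ikzf4 were under the floor, so their likest genes are not named. Promoter sequences are from RefSeq, and proteins were not analysed here.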

Additional observations from a re-analysis of the deposited data

Results flagged for a closer look

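On these arrays the Ikzf1 signal at 12 h moved in opposite directions in the 2 genotypes, and neither difference passed limma's test. The log2 difference from unstimulated cells was −0.69 in IkL/L cells (adjusted p = 0.0559) and 0.32 in WT cells (adjusted p = 0.413). Leaving out arrays or sources gave −0.99 to −0.38 in IkL/L and 0.16 to 0.49 in WT cells. Each 12 h array of IkL/L cells lay below, and each of WT cells above, both unstimulated arrays of its genotype. The difference between the responses, −1.01 with a 95% interval of −1.69 to −0.33, did not pass limma's test over all genes (adjusted p = 0.637). With the replicate number as a block within genotype its adjusted p was 0.157.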

How the results depend on the processing

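Over 27 alternatives, 933 checks of single members gave 841 with direction and side of the threshold kept, 38 calls lost, 18 gained and 36 changes of sign, all of these in differences not called as reported. The number of members called at 12 h in IkL/L cells was 1, and became 3 with the replicate block within genotype, 3 with a shared block, 0 with a gene's probe sets averaged, 2 without the dimmest genes, 2 with an intensity trend, 2 with median centring, 2 with housekeeping scaling and 0 to 3 leaving out arrays. From 3 to 12 h in IkL/L cells 3 became 1 with the mean of probe sets, 1 with housekeeping scaling and 1 to 3 leaving out arrays. The mean of probe sets gave 1 in place of 2 in WT cells at 3 h, 0 in place of 1 at 12 h and 1 in place of 2 from 3 to 12 h; leaving out arrays gave 0 to 2, 0 to 1 and 0 to 2. Leaving out arrays gave 1 to 2 in IkL/L cells at 3 h, and 0 to 1 between genotypes at 12 h and in the average. The average had 0 and became 2 with the shared replicate block, 1 without the dimmest genes, 1 with an intensity trend and 1 with housekeeping scaling.

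The log2 differences that changed sign were as follows. For Ikzf3 in IkL/L cells at 12 h they were −0.18 with the mean of probe sets, −0.22 with housekeeping scaling and −0.29 to 0.34 leaving out arrays, and in WT cells −0.0071 with the mean of probe sets. Between the genotypes Ikzf3 gave −0.24 to 0.099 unstimulated leaving out arrays, and at 3 h −0.013 with the mean of probe sets, −0.00078 with housekeeping scaling and −0.21 to 0.30 leaving out arrays. Its responses differed at 3 h by −0.14 to 0.37. Ikzf5 in IkL/L cells at 3 h gave −0.044 to 0.19. Between the genotypes Ikzf5 gave 0.063 with the mean of probe sets and −0.12 to 0.047 leaving out arrays when unstimulated, 0.24 and −0.14 to 0.11 at 12 h, and −0.045 in the average with housekeeping scaling. Its responses differed at 12 h by −0.055 with housekeeping scaling and by −0.18 to 0.23 leaving out arrays. For Ikzf1 and Ikzf3 averaging adds a probe set under the floor by construction, and otherwise the cause was not tested. With the alternative floor of 4.58, Ikzf5 at 12 h was at least 1.5-fold lower in IkL/L and at least 1.53-fold lower in WT cells. Averaging probe sets also ended calls for Ikzf1 in WT cells at 3 h (adjusted p = 0.116) and from 3 to 12 h in IkL/L (0.0747) and WT cells (0.0501), and for Ikzf5 at 12 h in IkL/L (0.492) and WT cells (0.134) and from 3 to 12 h in IkL/L cells (0.0600). An intensity trend ended the Ikzf5 call at 12 h in IkL/L cells (0.0536), and fitting the compared arrays alone that of Ikzf1 from 3 to 12 h in IkL/L cells (0.0571). The Ikzf1 difference at 12 h in IkL/L cells passed with the shared block (0.0206), without the dimmest genes (0.0431), with the trend (0.0314), median centring (0.0471) and housekeeping scaling (0.0107). The block within genotype changed no call beyond those given, and the shared block passed the Ikzf1 average (adjusted p = 0.0191). Housekeeping scaling, of which 2 genes were themselves called higher at 12 h in each genotype, changed counts of called genes by over 1.5 times between the genotypes (96 in place of 205 unstimulated, 119 in place of 310 at 3 h, 32 in place of 112 at 12 h, 695 in place of 1107 in the average), and from 3 to 12 h in WT cells (1228 in place of 1970). Fitting only the compared arrays gave 44, 128 and 4 unstimulated, at 3 h and at 12 h, and 1197 from 3 to 12 h in WT cells, and the random source block gave 695 in the average. The shared block gave 400 unstimulated, 572 at 3 h, 187 at 12 h and 1763 in the average, and the block within genotype 3090 from 3 to 12 h in WT cells. For the difference of responses, called for 7 genes at 3 h and 4 at 12 h, alternatives gave 0 to 27 and 0 to 26. Leaving out arrays or sources lowered the response counts to 412 to 1963 at the least. Signal over background limits Ikzf2 and Ikzf4.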
